A study of Mus musculus with 8 samples.

Results

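Polysomal mRNA of 8 neuronal genes was followed in the main olfactory epithelium of mice with and without the RNA-binding protein Mex3a. The 8 genes were chosen by symbol from the 21765 genes of the deposited expression table: the neurofilament subunits Nefl, Nefm, Nefh and Ina, the granins Chga, Chgb and Scg2, and Map7d2. Nefl, Chgb and Map7d2 were chosen because their values were lower in the knockout libraries, and the other 5 were added as relatives of Nefl and Chgb. Levels in knockout against wild type are therefore a description of the chosen genes and carry no test. The position of their mRNAs in late against early polysomes, averaged over genotypes, did not choose them and was tested.

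A pair of genotypes and of gradient pools gave 4 groups of 2 libraries each. All mice carried a floxed Mex3a allele. The conditional knockout (cKO) group was Mex3a flox/flox with Cre. The wild-type (WT) group was Mex3a flox/flox or flox/+ without Cre, so the controls were not free of the floxed allele. The labels give neither age nor sex, nor how many animals went into a lysate. Tissue was placed in cycloheximide at 100 µg/mL, which holds ribosomes on mRNA, and lysates were spun through sucrose. About 42 fractions of 350 µL were collected. The pool of fractions 27 to 34 is called early polysomes here, and the pool of fractions 35 to 42, which lie deeper in the gradient, is called late polysomes.

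Values are transcripts per 1000000 (TPM), a level corrected for transcript length. Steps in the TPM values gave 7776792 reads in cKO late replicate 2 and 10286773 to 12771079 in the other libraries. Replicates correlated across genes at 0.978 to 0.985. Mex3a itself was at 97.4 and 116 TPM in early and 93.2 and 95.6 in late WT polysomes, against 13.9 and 19.8 in early and 11.1 and 13.8 in late cKO polysomes. The cKO mean was 16.5% of WT in early and 13.5% in late polysomes, and the fall on lysate means was -2.67 log2 (SE 0.14, adjusted p = 0.0227, limma, 2 lysates per genotype). WT early replicate 2 carries the cKO genotype tag in one label field, against its title, but had the highest Mex3a level of the 8 libraries. It was kept as WT, and values without it are given for part of the results. Markers of mature olfactory sensory neurons, the labelled tissue's receptor cells, summed to 7921 to 12907 TPM in the 8 libraries, and all 12 of them were above 0 in each.

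Neurofilaments are the intermediate filaments of neurons. Nefl forms the core of the filament, Nefm and Nefh carry long tails that project from it, and Ina, or alpha-internexin, is a subunit that is prominent in developing and thin axons. Olfactory sensory neurons send thin, unmyelinated axons to the brain. Granins are acidic proteins of dense-core vesicles, the organelles that store peptides and hormones for regulated release. Chga and Chgb encode chromogranins A and B, and Scg2 encodes secretogranin II. Map7d2 belongs to the MAP7 family, whose members bind microtubules and recruit the kinesin-1 motor to them. Heavier polysome fractions hold mRNAs with more ribosomes, and a longer coding sequence leaves room for more of them.

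The genes lie apart in the genome except for one pair (GRCm38, GENCODE annotation). Nefl is at chr14:68083863-68089095 on the plus strand and Nefm at chr14:68082590-68124846 on the minus strand. The last exon of a Nefm transcript overlaps the first exon of Nefl over 1108 bases, at chr14:68083863-68084970. The library kit keeps the strand, but whether the counting used it is not given in the sources used here, so reads in that stretch may be shared. The other members are Nefh at chr11:4938754-4948064 (minus), Ina at chr19:47014698-47025327 (plus), Chga at chr12:102554969-102565028 (plus), Chgb at chr2:132781278-132795079 (plus), Scg2 at chr1:79434669-79440120 (minus) and Map7d2 at chrX:159414572-159498757 (plus).

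The granin promoters are shown because all 3 hold a form of 1 sequence element, while of the 3 only Chgb was chosen for being lower in cKO. The element is the cAMP response element, the binding site of CREB-family factors, with the letters TGACGTCA and the shorter form TGACGT, which lies inside it. Both strands of the window from 250 bases before to 50 bases after each RefSeq start site (GRCm38.p6) were searched, and 5 of the 8 members had a window, Ina, Chga, Chgb, Scg2 and Map7d2. Capitals mark the match, and each sequence is read on the strand of its gene.
Chga, chr12:102554841-102554940, plus strand: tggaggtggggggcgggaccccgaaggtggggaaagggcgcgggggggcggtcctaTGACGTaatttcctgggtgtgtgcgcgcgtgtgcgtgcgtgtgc
Chgb, chr2:132781559-132781588, plus strand: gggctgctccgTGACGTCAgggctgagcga
Scg2, chr1:79440076-79440105, minus strand: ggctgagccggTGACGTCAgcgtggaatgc
The full element began 72 bases before the RefSeq start site in Chgb and 68 bases before it in Scg2. In the GENCODE annotation, whose gene spans are given above, these stretches lie inside the genes. The 100 bases before each of these 2 RefSeq start sites overlap annotated exons (1 in Chgb and 2 in Scg2). Chga held the shorter form, beginning 44 bases before its RefSeq start site, and its stretch overlaps no GENCODE exon. Of all 32851 promoter windows of that length, 1.79% held TGACGTCA and 7.51% held TGACGT on either strand. These letters were found in neither the Ina window nor the windows at the 2 start sites of Map7d2.

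Chga was by far the most abundant member and Nefm the least. The mean TPM over the 8 libraries, after scaling between libraries, was 1070 for Chga, 55.5 for Ina, 41.9 for Scg2, 32.4 for Chgb, 21.3 for Map7d2, 8.36 for Nefl, 3.38 for Nefh and 1.23 for Nefm. Chga stood above 99.5% of the 16097 genes tested, those whose TPM averaged 1 or more, and Nefm above 2.53% of them. In lysate means of early and late polysomes, Chga lay at 1030 to 1143 TPM, well clear of Ina at 45.7 to 64.5. The order was not settled between Scg2 (40.0 to 45.4) and Chgb (20.5 to 45.6), between Chgb and Map7d2 (16.0 to 25.7), or between Nefl (2.89 to 14.2) and Nefh (2.57 to 4.02), since their lysates overlapped. The depth differed accordingly: Chga had 4167 to 13474 reads per library, Ina 304 to 805, Nefl 13 to 176, Nefh 31 to 82 and Nefm 10 to 31. A level set between genes also depends on the length the authors divided by. For Nefl the TPM steps implied 2001 bases, against 3380 for the longest annotated transcript. For Ina they implied 2259 against 3240, so its place above Scg2 may depend on that length. For Chgb they implied 2733 against 2740.

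Nefl, the core subunit, was at 8.76 and 8.32 TPM in early and 20.8 and 17.6 in late WT polysomes, against 1.68 and 1.48 in early and 4.09 and 6.49 in late cKO polysomes. Each of the 4 cKO libraries lay below each of the 4 WT libraries, and within each genotype late lay above early. The cKO mean was 19.2% of the WT mean in early polysomes and 28.1% in late polysomes. On the log2(TPM + 1) scale the difference was -1.86 (SE 0.20) in early and -1.66 (SE 0.20) in late. Without WT early replicate 2 the early value was -1.88. Late polysomes depended more on the library, with -1.41 without cKO late replicate 1 and -1.92 without replicate 2. The pseudocount of 1 shrinks so low a gene, and with 0.1 the early difference was -2.31. In lysate means Nefl had the 13th largest fall of the 16097 genes, which is one of the values that chose it.

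Its fellow subunits did not share that gap. Ina was at 36.2 and 51.9 TPM in early and 83.3 and 81.7 in late WT polysomes, against 29.1 and 30.7 in early and 62.1 and 80.6 in late cKO polysomes. The early libraries did not overlap between genotypes, while after scaling the late ones did. The difference was -0.47 (SE 0.18) in early and -0.18 (SE 0.18) in late, and the early value was -0.20 without WT early replicate 2 and -0.73 without WT early replicate 1. Nefh was at 2.64 and 2.40 TPM in early and 4.62 and 4.71 in late WT polysomes, against 2.16 and 1.77 in early and 2.94 and 6.50 in late cKO polysomes. Its cKO late replicates stood on either side of both WT late libraries, and the late difference of -0.03 became 0.41 without cKO late replicate 1 and -0.47 without replicate 2. Nefm was at 1.98 and 0.84 TPM in early and 1.90 and 0.85 in late WT polysomes, against 0.91 and 0.78 in early and 1.61 and 1.15 in late cKO polysomes. Its 2 WT lysates differed more from each other than the genotypes did, on at most 31 reads in a library. Its early difference was -0.32 (SE 0.34), or -0.66 without WT early replicate 2, and no difference was detectable at this depth.

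The make-up of neurofilament mRNA shifted with Nefl. Nefl supplied 13.1% to 17.7% of the summed TPM of the 4 subunits in WT early and 16.8% to 18.8% in WT late. In cKO it supplied 4.27% to 4.96% in early and 5.78% to 6.85% in late polysomes. Ina supplied 73.0% to 81.8% in the WT libraries and 85.1% to 88.4% in the cKO libraries, so the ranges of both subunits were apart. These shares restate the values that chose Nefl and carry no test. The summed TPM of the 4 subunits was 49.5 to 63.4 in early WT polysomes against 33.9 to 34.7 in cKO early, and 105 to 111 in WT late against 70.8 to 94.7 in cKO late.

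**Figure D1:**
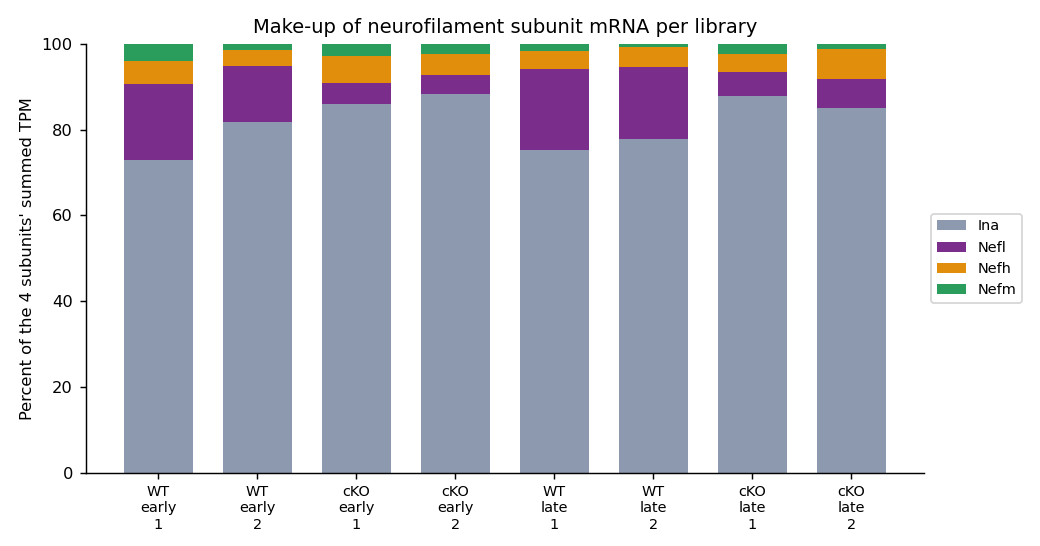
Each bar is 1 library, and its colours give the percent of the 4 neurofilament subunits' summed TPM from Ina, Nefl, Nefh and Nefm. The Nefl band spans 13.1% to 18.8% in the 4 WT libraries and 4.27% to 6.85% in the 4 cKO libraries, and the Ina band fills most of each bar.

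Among the granins, Chgb stood apart from its relatives. Chgb was at 36.1 and 28.5 TPM in early and 58.1 and 53.8 in late WT polysomes, against 16.9 and 14.3 in early and 30.3 and 27.3 in late cKO polysomes. The cKO libraries lay below the WT libraries of the same fraction, at 50.4% of the WT mean in early and 52.8% in late, while cKO late reached the level of WT early. The difference was -0.94 (SE 0.14) in early and -0.90 (SE 0.14) in late polysomes, on 172 to 672 reads per library. Without WT early replicate 2 the early value was -1.10.

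Chga and Scg2 did not show that gap. Chga was at 622 and 585 TPM in early and 1519 and 1640 in late WT polysomes, against 621 and 505 in early and 1669 and 1639 in late cKO polysomes. The early libraries overlapped, at 97.0% of WT, and the late cKO libraries lay above the WT ones only after scaling, at 108%. Differences were -0.05 (SE 0.13) and 0.11 (SE 0.13), and quantile normalization turned the late value to -0.06. Scg2 was at 29.1 and 22.1 TPM in early and 65.1 and 63.8 in late WT polysomes, against 24.1 and 18.7 in early and 58.1 and 63.4 in late cKO polysomes. Its libraries overlapped in early polysomes and, after scaling, in late ones, with differences of -0.19 (SE 0.15) and -0.05 (SE 0.15). The early value was -0.37 without WT early replicate 2 and -0.01 without replicate 1. Chgb accordingly gave 4.48% to 5.25% of the 3 granins' summed TPM in WT early against 2.55% to 2.67% in cKO early, and 3.06% to 3.54% in WT late against 1.58% to 1.72% in cKO late. Because Chga supplied over 90.5% in each library, the summed level of the granins hardly followed Chgb: in late polysomes it was 1642 to 1758 TPM in WT and 1729 to 1757 in cKO.

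Map7d2 was at 25.69 and 25.01 TPM in early and 27.1 and 27.8 in late WT polysomes, against 13.31 and 14.01 in early and 18.5 and 21.6 in late cKO polysomes. Each cKO library lay below each WT library, and the WT libraries were nearly level across fractions. The cKO mean was 56.1% of WT in early and 75.1% in late polysomes, with differences of -0.79 (SE 0.11) and -0.40 (SE 0.11). On lysate means Map7d2 showed the smallest difference of the 3 genes chosen for being lower, at -0.60 (SE 0.088), against -0.92 (SE 0.11) for Chgb and -1.76 (SE 0.14) for Nefl. Ina came next among their relatives, at -0.32 (SE 0.11).

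**Figure D2:**
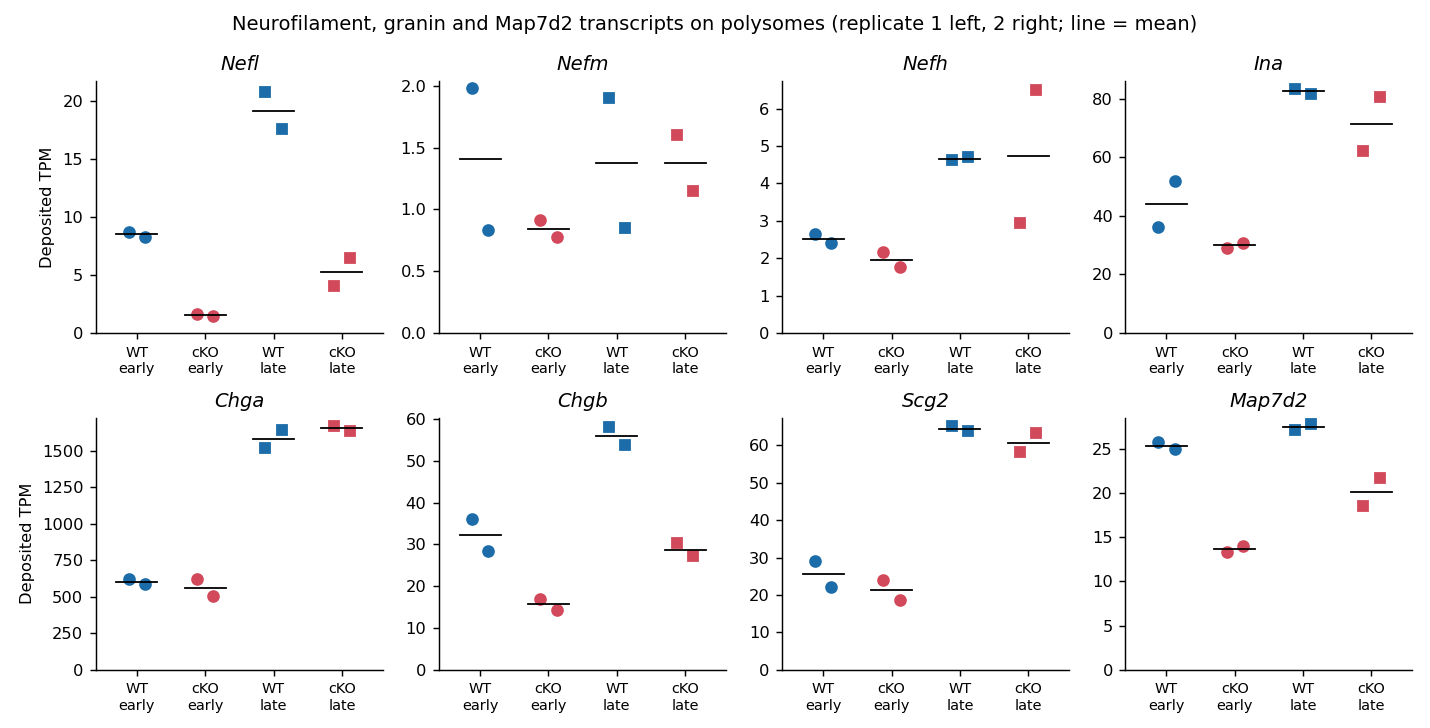
Deposited TPM of the 8 genes (vertical axis, linear, from 0), with WT in blue, cKO in red, early polysomes as circles, late polysomes as squares and a line at the mean of 2 libraries. Nefl and Map7d2 are lower in all 4 cKO libraries than in any WT library, Chgb is lower within each fraction, and Chga and Scg2 differ mainly between fractions.

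Counted without regard to size, the cKO libraries lay below the WT libraries in early polysomes for 5 of 8 members (Nefl, Nefh, Ina, Chgb and Map7d2), against 17.6% of all genes tested. In late polysomes this held for 3 of 8, against 20.1%, and in both fractions for the same 3, Nefl, Chgb and Map7d2, against 6.67%. All 4 cKO libraries lay below all 4 WT libraries for Nefl and Map7d2, against 1.28% of genes. These counts rest on the contrast that chose the members. The median cKO difference of the 8 members was -0.39 in early and -0.11 in late polysomes, beside 0.005 and -0.0007 for all genes tested.

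A lower level on polysomes in whole tissue can reflect fewer cells of a type or less RNA per cell, and these cannot be told apart here. Total RNA of the same lysates was not analysed here, so less mRNA and less of it on polysomes cannot be told apart either. Summed markers of mature olfactory sensory neurons were 10675 to 12907 TPM in WT early and 11047 to 11443 in cKO early, and 9033 to 9648 in WT late against 7921 to 8647 in cKO late. For 1 of those 12 genes, the chloride channel Ano2, the cKO libraries lay below WT in both fractions, against 6.67% of all genes tested. Summed markers of immature neurons were 2413 to 2543 TPM in WT early against 2267 to 2316 in cKO early. In late polysomes they were 3219 to 3261 TPM in WT against 2834 to 3099 in cKO. The deposited sums were thus lower in cKO in both fractions. After scaling between libraries the early sums overlapped, with factors of 0.940 for cKO early replicate 2 and 0.995 for WT early replicate 1. Among the 8 genes, Gap43 was lower and Lhx2 higher without overlap in both fractions, against 6.67% and 6.57% of all genes tested.

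Markers of neurons of the olfactory bulb and forebrain, which are not cells of the epithelium, were low, and most were lower in cKO, as Nefl was. Their 12 genes summed to 40.9 to 61.8 TPM in early and 47.4 to 77.1 in late WT polysomes, against 31.9 to 41.0 in early and 41.4 to 49.5 in late cKO polysomes. These sums overlapped between genotypes in both fractions. Of 11 tested, 9 were lower in cKO on lysate means, with a median of -0.38, while Gad2 (0.24) and Neurod6 (0.20) were higher. By the same count, 11 of 12 mature and 6 of 8 immature neuron markers were lower, with medians of -0.09 and -0.12. Without overlap in both fractions, 3 of the 11 were lower (Eomes, Th and Doc2g), against 6.67% of all genes tested. Th was low, at 0.70 and 0.95 TPM in WT early. Doc2g, a gene of mitral and tufted cells of the bulb, was at 6.35 and 2.83 TPM in early and 3.55 and 1.31 in late WT polysomes, against 0.75 and 0.98 in early and 0.98 and 0.00 in late cKO polysomes. Tbx21 was also at 0, in 1 library. In WT the sum was higher in replicate 1 than in replicate 2, at 61.8 against 40.9 TPM in early and 77.1 against 47.4 in late polysomes. In the same libraries Nefl was at 8.76 against 8.32 and 20.8 against 17.6 TPM, Chgb at 36.1 against 28.5 and 58.1 against 53.8, and Map7d2 at 25.69 against 25.01 and 27.1 against 27.8. In cKO the bulb and forebrain sum was also higher in replicate 1, at 41.0 against 31.9 TPM in early and 49.5 against 41.4 in late. There Nefl was at 1.68 against 1.48 and 4.09 against 6.49 TPM, and Chgb at 16.9 against 14.3 and 30.3 against 27.3. Map7d2 was at 13.31 against 14.01 and 18.5 against 21.6 TPM. Nefl in late polysomes and Map7d2 in both fractions were thus higher in cKO replicate 2. The part of the bulb and forebrain markers in the Nefl, Chgb and Map7d2 values was not tested. Among markers of the trigeminal nerve, whose sensory neurons are rich in neurofilaments, 4 of 10 were at 0 in at least 1 library and the sums were 11.6 to 16.4 TPM in WT and 13.2 to 19.0 in cKO. Myelin markers summed to 67.8 to 83.5 TPM in WT and 75.7 to 87.3 in cKO. Markers of microvillous and solitary chemosensory cells were higher in cKO as a sum, at 71.5 to 76.4 against 57.9 to 70.2 TPM in early polysomes. In late polysomes they summed to 112 to 126 against 89.5 to 96.8 TPM, and their part was not tested either. Ascl3 and Foxi1 made up most of the sum, with Ascl3 at 38.3 to 50.6 TPM in WT and 46.5 to 65.7 in cKO. Chat, Gnat3 and Il25 were at 0.78 TPM or less in each library. Among vomeronasal, GnRH and terminal nerve markers, 3 of the 4 listed genes had values, all but Trpc2. They summed to 173 to 189.8 TPM in WT and 157 to 177 in cKO in early polysomes. In late polysomes the sum was 196 to 206 against 153 to 192 TPM, lower in both cKO libraries. Most of it came from Gnao1, at 136 to 182 TPM in WT and 121 to 172 in cKO, while Gnrh1 was at 1.05 to 8.29. Sustentacular markers, of the supporting cells, were 5691 to 5831 TPM in WT and 5629.5 to 6247 in cKO in early polysomes, and 7062 to 7819 against 7888 to 9172 in late ones, higher in both cKO late libraries. Globose basal and progenitor markers, at 261 to 282 against 246 to 291 TPM in early and 384 to 396 against 366 to 393 in late polysomes, and horizontal basal markers, at 45.9 to 57.5 against 38.6 to 55.5 and 86.7 to 89.0 against 80.1 to 92.8, overlapped between genotypes. Their part in the members' values was not tested. Of 62 marker genes tested, 0 passed between genotypes in early polysomes, late polysomes or lysate means by limma (0.0435%, 0.0124% and 0.00621% of all genes passed) or by voom on inferred reads. At an unadjusted p under 0.05 there were 3, 9 and 7 by limma, where 6.65%, 9.36% and 11.3% of all genes fell under it, and 2, 13 and 16 by voom.

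**Figure D3:**
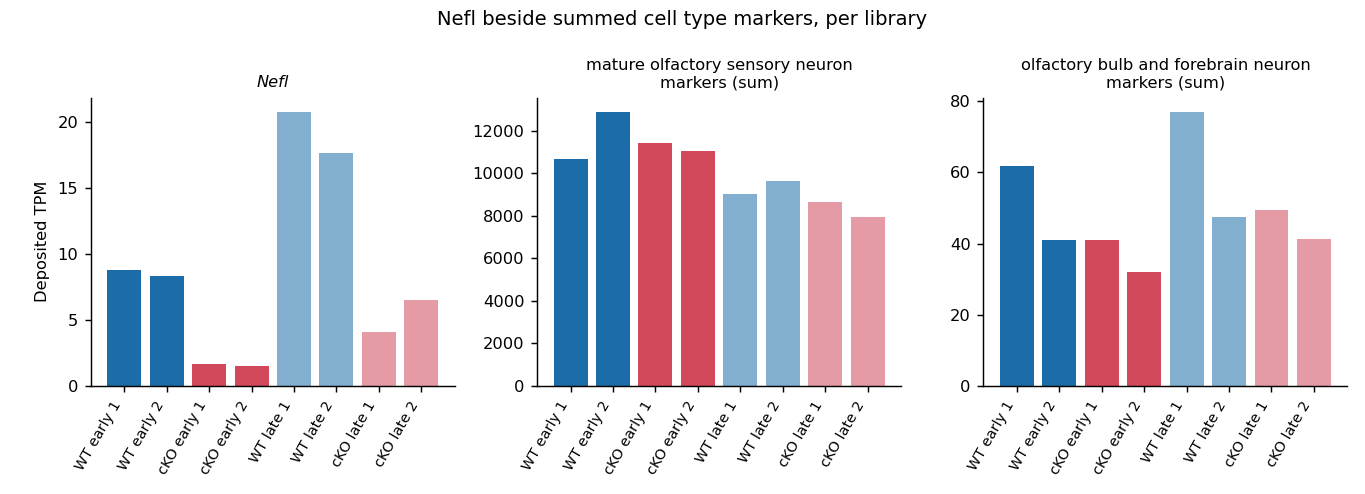
Deposited TPM per library of Nefl (left), of 12 mature olfactory sensory neuron markers summed (middle) and of 12 olfactory bulb and forebrain neuron markers summed (right), on linear axes from 0, with WT in blue, cKO in red and late polysomes in paler colours. Nefl spans 8.32 to 20.8 TPM in WT and 1.48 to 6.49 in cKO. The mature neuron sum overlaps between genotypes in early polysomes and is lower in both cKO libraries in late polysomes. The bulb and forebrain sum overlaps between genotypes in both fractions and is highest in WT replicate 1.

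Late against early polysomes asked where along the gradient these mRNAs sat. All 8 members passed the filter on low values. Of the 8, 7 were higher in late polysomes at an adjusted p under 0.05, against 34.3% of all genes tested, and the median over the 8 was 0.83 log2, beside -0.01 for all genes. Without WT early replicate 2 the count was 6 of 8, with Map7d2 lost. Most of the tissue's mRNAs moved one way or the other, since 68.9% of genes passed in either direction. In WT alone 5 of 8 members passed as higher (27.1% of genes), and in cKO alone 7 of 8 (28.9%). Late exceeded early in 4 of 4 lysates for 6 members, against 38.2% of genes, in 3 of 4 for Map7d2 and in 2 of 4 for Nefm.

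Averaged over genotypes, the granins Chga and Scg2 rose most of the members, while the granin Chgb rose less than Nefl and Ina. Chga rose by 1.36 log2 in late polysomes (SE 0.095, adjusted p = 1.9e-05, limma), with lysate values of 1.20 and 1.36 in WT and 1.34 and 1.53 in cKO. Scg2 rose by 1.28 (SE 0.11, adjusted p = 2.7e-05), with 1.05 and 1.36 in WT and 1.15 and 1.55 in cKO. Chgb rose by 0.70 (SE 0.10, adjusted p = 0.00032), with 0.59 and 0.77 in WT and 0.72 and 0.72 in cKO. Each granin was higher in late polysomes in 4 of 4 lysates, and the lysate values of Chgb lay below those of both relatives.

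Among neurofilaments, Nefl rose by 1.07 (SE 0.14, adjusted p = 0.00021), with lysate values of 1.08 and 0.88 in WT and 0.87 and 1.47 in cKO. Ina rose by 0.95 (SE 0.12, adjusted p = 0.0002), with 1.10 and 0.52 in WT and 0.99 and 1.20 in cKO. Both were higher in late polysomes in 4 of 4 lysates. Nefh rose by 0.69 (SE 0.20, adjusted p = 0.0139), in 4 of 4 lysates, with the widest spread of the 8 genes, from 0.26 in cKO lysate 1 to 1.31 in cKO lysate 2. Nefm did not pass, at 0.11 (SE 0.24, adjusted p = 0.693). Its value turned to -0.06 without WT early replicate 2 and to -0.05 without WT late replicate 1.

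Map7d2 differed least of the members that passed, by 0.20 (SE 0.078, adjusted p = 0.0455). Its WT lysates were at -0.01 and 0.02 and its cKO lysates at 0.37 and 0.43. The call was fragile: with the early and late library of a lysate paired as a block the adjusted p was 0.0593, and it was lost without any 1 library other than cKO late replicate 1. Over the alternatives its adjusted p ranged from 0.0088 to 0.125 and its value from 0.16 to 0.31.

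**Figure D4:**
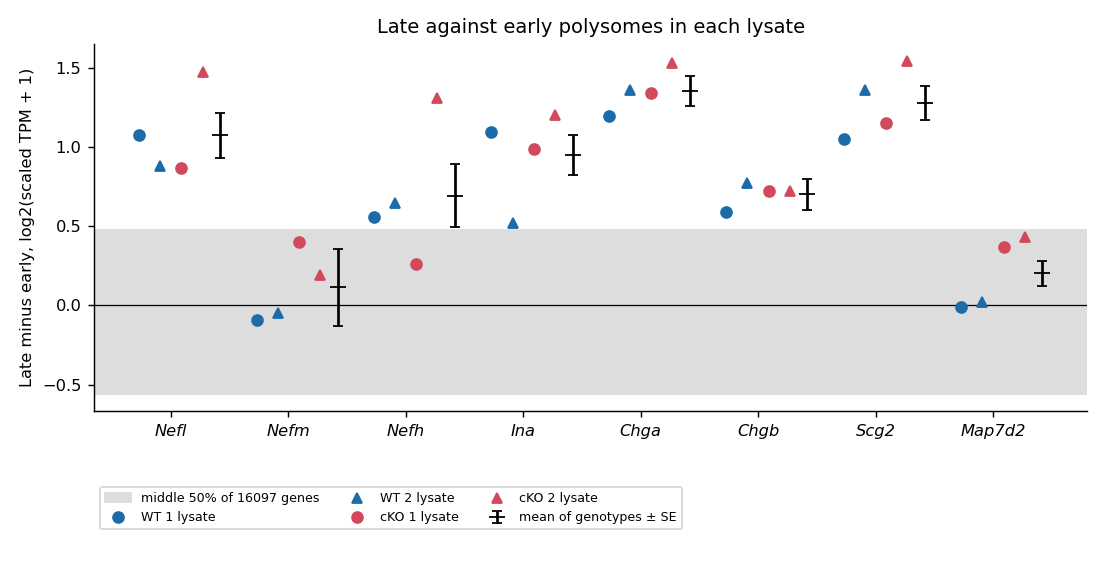
Late minus early polysomes in log2(scaled TPM + 1) (vertical axis) for each gene and lysate, with the mean of the genotypes and its SE as the black bar and the middle 50% of the 16097 tested genes in grey. Chga and Scg2 lie highest, Nefm straddles 0, and Map7d2 lies near 0 in both WT lysates and at 0.37 and 0.43 in the cKO lysates.

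Coding length was set beside these values because it tracked the position of mRNAs on the gradient across genes. Over 10 equal bins of genes by longest coding length, the median late difference went from -1.12 in the shortest bin to 0.50 in the longest. Chga, with 1389 coding bases, lay above 98.98% of the genes in its bin, Scg2 (1851) above 98.6%, Nefl (1629) above 95.3% and Ina (1503) above 91.0%. Chgb (2031) and Nefh (3270) lay above 75.7% and 70.9% of theirs. Map7d2 (2343) and Nefm (2544) lay lower than most genes of their length, above 36.8% and 24.7%.

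**Figure D5:**
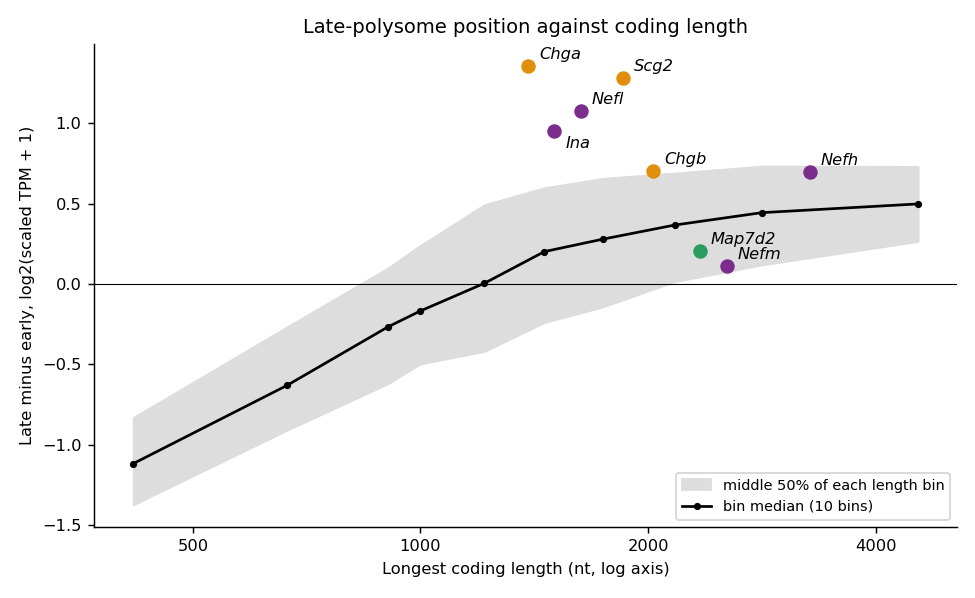
Late minus early polysomes, average of genotypes, in log2(scaled TPM + 1) (vertical axis) against longest coding length in bases (log axis), with the median and the middle 50% of each of 10 length bins. Chga, Scg2, Nefl and Ina lie above the band, Chgb and Nefh near its upper edge, and Map7d2 and Nefm in its lower part.

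Whether the shift differed between genotypes was tested as an interaction for the 5 members not chosen for being lower. None of the 5 passed: Nefm was at 0.37 (SE 0.48), Ina at 0.29 (SE 0.25), Nefh at 0.18 (SE 0.40), Chga at 0.16 (SE 0.19) and Scg2 at 0.14 (SE 0.21), each with an adjusted p of 1.00 by limma and an unadjusted p between 0.281 and 0.660. Of all genes 0.00621% passed, 1 gene, and 459 (2.85%) had an unadjusted p under 0.05. For the chosen genes the same difference, given as a description, was 0.40 (SE 0.16) for Map7d2, 0.19 for Nefl and 0.04 for Chgb. With SE of 0.19 to 0.48, a difference of the size of Map7d2's could have gone undetected in any of the 5 tested members. The SE were largest for Nefm and Nefh, the members with the fewest reads. Without WT early replicate 2, the interaction of these 5 ranged from 0.02 for Ina to 0.71 for Nefm.

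The wider families were taken from 3 lists of 69 genes, 66 of them tested. Of 12 partners of intermediate filaments, 5 rose and 4 fell in late polysomes by the same limma test (34.3% of all genes rose and 34.6% fell), with a median of 0.06. The filament protein Vim rose by 0.81 (SE 0.086, adjusted p = 7.2e-05) and Synm by 0.67 (SE 0.11, adjusted p = 0.00084). Sync fell by 0.91 (SE 0.13, adjusted p = 0.00038) and the kinase Cdk5 by 0.81 (SE 0.13, adjusted p = 0.00072). Uchl1, a deubiquitinase, had the highest level, at a mean of 843 TPM.

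Of 25 tested genes of granin relatives and dense-core vesicles, 9 rose and 5 fell, with a median of 0.06, beside 0.70 to 1.36 for the 3 granins. Hid1 rose by 1.06 (SE 0.086, adjusted p = 2.6e-05), Cadps, which primes dense-core vesicles for release, by 1.00 (SE 0.10, adjusted p = 5.6e-05) and the vesicle protein Syt4 by 0.97 (SE 0.082, adjusted p = 3e-05). The small GTPases Rab2a and Rab27b fell by 0.92 (SE 0.088, adjusted p = 4.5e-05) and by 0.84 (SE 0.098, adjusted p = 0.00011). Pcsk1n, which encodes the granin-like inhibitor proSAAS, fell by 0.71 (SE 0.14, adjusted p = 0.0019). Cpe, the carboxypeptidase that trims prohormones, had the highest level, 578 TPM, and rose by 0.55 (SE 0.080, adjusted p = 0.00038).

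Of 29 tested MAP7 relatives, kinesin-1 subunits and microtubule-associated genes, 21 rose and 5 fell, with a median of 0.52, above the 0.20 of Map7d2. Map7d1, its relative, rose by 1.18 (SE 0.080, adjusted p = 1.9e-05), the microtubule stabilizer Map6 by 1.15 (SE 0.079, adjusted p = 1.9e-05) and Camsap3, which binds microtubule minus ends, by 1.12 (SE 0.11, adjusted p = 5.3e-05). Tppp3 fell by 1.24 (SE 0.085, adjusted p = 1.9e-05), Tppp by 0.39 (SE 0.077, adjusted p = 0.002) and the tubulin-binding Stmn1, the most abundant of the list at 1088 TPM, by 1.19 (SE 0.12, adjusted p = 6.2e-05).

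Between genotypes no gene of the 3 lists passed by limma in early polysomes (0.0435% of all genes passed), late polysomes (0.0124%) or lysate means (0.00621%). At an unadjusted p under 0.05 there were 18, 16 and 20 of the 66, against 6.65%, 9.36% and 11.3% of all genes, of which 15, 12 and 16 were lower in cKO. Without overlap in both fractions, 18 of the 66, or 27.3%, were lower in cKO against 6.67% of all genes, and 4 were higher against 6.57%. The lower ones were 1 filament partner, 8 dense-core vesicle genes and 9 microtubule genes. The higher ones were 1 filament partner, 1 dense-core vesicle gene and 2 microtubule genes. Of the filament partners, Synm was the lower one, at -0.27 on lysate means (unadjusted p = 0.065, limma). Prph, or peripherin, was the higher one, at 0.41 (unadjusted p = 0.0015, limma). The medians on lysate means were 0.01, -0.11 and -0.13 for the 3 lists.

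Within the 3 lists, among genes with a mean of at least 5 TPM whose 4 cKO libraries did not overlap the 4 WT ones, Pcsk1n had the largest lysate-mean difference. It was at 12.6 and 10.6 TPM in early and 9.705 and 6.79 in late WT polysomes, against 4.89 and 5.61 in early and 2.62 and 2.71 in late cKO polysomes. Each cKO library lay below each WT library, with a lysate-mean difference of -1.12 (SE 0.16, adjusted p = 0.196, limma). Furin, a proprotein convertase, was at 0.31 (SE 0.085, adjusted p = 0.367) and the doublecortin relative Dclk2 at -0.17 (SE 0.099, adjusted p = 0.554), both without overlap of the 4 WT and 4 cKO libraries after scaling. On lysate means with the replicate number as a block, Pcsk1n (adjusted p = 0.0491), Dcx (-0.40, adjusted p = 0.0388) and Tppp3 (0.45, adjusted p = 0.0325) passed. By voom on the inferred reads, 0 passed in early or late polysomes, while on lysate means Syt4 (-0.70, adjusted p = 0.0376), Mapt (-0.53, adjusted p = 0.0409) and Tppp3 (0.47, adjusted p = 0.0407) passed.

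The genes whose pattern over the 8 libraries of 4 lysates was most like each chosen member were found among 12202 genes by the root mean square of the differences in centred log2 values. Among the 5 nearest to Nefl were the odorant receptor gene Olfr1507 (0.39 log2), the tubulin gene Tubb4a (0.41), Chgb (0.50) and the receptor gene Olfr726 (0.56). Tubb4a was at 7.499 and 4.204 TPM in early and 19.0 and 10.4 in late WT polysomes, against 2.08 and 1.74 in early and 5.39 and 7.66 in late cKO polysomes. Olfr1507 was at 12.2 and 9.31 TPM in early and 19.3 and 20.8 in late WT polysomes, against 3.52 and 4.57 in early and 7.08 and 7.29 in late cKO polysomes. Of the other members, Map7d2 came 49th and Ina 57th, while Scg2 was 670th, Nefh 812th, Chga 2810th and Nefm 4632nd. Among the 3 nearest to Chgb were Sphkap (0.18) and the adhesion gene Ncam2 (0.21). Nearest to Map7d2 were Lrrn3 (0.11), Luzp2 (0.12) and the cadherin gene Cdh4 (0.14). Lrrn3 was at 30.1 and 28.6 TPM in early and 29.3 and 33.7 in late WT polysomes, against 18.4 and 18.8 in early and 20.9 and 24.1 in late cKO polysomes. Each of these neighbours was lower in cKO on lysate means, from -0.46 for Luzp2 to -1.43 for Olfr726, which follows from how likeness was measured.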

How the data were processed

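Per the labels' protocols, polysomal RNA from sucrose gradients was made into stranded total RNA libraries with a low-input kit. The authors deposited 1 table of TPM values, 1 column per library. The submitters' processing notes name FastQC, cutadapt, STAR and DESeq2 and the build mm10; the counting method and its strand setting are not given in the sources used here. The Cre line is not reported here. Groups and replicate numbers came from sample titles. No label says whether replicates were separate animals, so p-values measure only the spread between these samples.

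The deposited TPM were divided by median-ratio factors of 0.940 to 1.07, and limma 3.58.1 (R 4.3.3) was run on log2(scaled TPM + 1). The fit covered the 16097 genes with a mean TPM of at least 1 and all 8 libraries in 4 groups, with a mean-variance trend. Tests were two-sided, with Benjamini-Hochberg adjustment over all genes tested and a threshold of 0.05. Fold changes on this scale understate those of low genes. Genotype was also fitted on the mean of early and late values of each lysate. Counts of libraries that do not overlap used scaled values. TPM states no depth; whole reads were inferred from the steps of a gene's TPM across libraries for 19783 of the 19783 genes above 0 in at least 2 libraries, within 0.001 of a whole read. The script was tested on simulated data. The early and late library of a lysate share its name in the library names and were paired in an alternative fit; their deviations from group means correlated at 0.0863 (WT) and 0.0502 (cKO) across genes. No label pairs WT with cKO lysates.

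The members, gene lists and markers were chosen with earlier results of these data known. Genes named were the members and Mex3a; in each list the genes that passed with the largest late change, at most 3 in each direction, the highest-level gene, every gene passing between genotypes, and up to 2 with a mean of at least 5 TPM, no overlap of genotypes and the largest lysate-mean difference; and the 5 genes most like Nefl and 3 most like Chgb and Map7d2. Some genes this rule names are not reported here. Genes passing between genotypes only in an alternative, Prph and the markers were named after their values were seen. Alternatives were other pseudocounts (0.1, 0.5), no filter or a mean TPM of 5, deposited or quantile-normalized TPM, a replicate block, each library left out, and voom on inferred reads.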

Additional observations from a re-analysis of the deposited data

Results flagged for a closer look

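Nefm in late against early polysomes was singled out because its lysates of each genotype moved one way: both WT lysates were lower in late polysomes (-0.09 and -0.05 log2) and both cKO lysates higher (0.40 and 0.19). The difference between genotypes was 0.37 (SE 0.48), with an adjusted p of 1.00 by limma in the interaction test, on 10 to 31 reads per library.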

How the results depend on the processing

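Of the members' late against early results, Chga, Scg2, Nefl, Ina and Chgb kept their direction and passed in every alternative, as did Nefh where it was tested (a mean TPM of at least 5 left Nefh and Nefm out). Members passing numbered 6 or 7 of 8. Leaving out 1 library, Nefm ranged from -0.059 (without WT early replicate 2; -0.047 without WT late replicate 1) to 0.29. In the interaction, Nefh ranged from -0.26 (without cKO late replicate 2) to 0.62, and Scg2 from -0.036 (without WT early replicate 1; -0.017 without cKO early replicate 2) to 0.32.

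Few genes passed between genotypes, and their number moved with the setting; the cause was not tested. In early polysomes 7 passed, 11 with no filter, 4 at a mean TPM of at least 5, 20 with voom and 0 to 9 without 1 library (0 without WT early replicate 1, where 589 had an unadjusted p under 0.05). In late polysomes 2 passed, 1 with a pseudocount of 0.1, 4 with no filter, 1 at a mean TPM of at least 5, 15 with voom and 0 to 13 without 1 library (0 without WT late replicate 1 or 2, with 798 and 1240 unadjusted). On lysate means 1 passed, 0 with no filter (2115 unadjusted), 58 with voom and 1 to 10 without 1 lysate. With the replicate block 85 passed on lysate means. Deviations of libraries with the same number in WT and cKO correlated at 0.332 in early and 0.143 in late polysomes, but no label pairs them. Of the listed genes 0 passed on lysate means, 3 with the replicate block and 3 with voom. The replicate block by lysate changed no member's late against early call other than that of Map7d2. In the interaction 1 gene passed, 6 with no filter, 0 where TPM averaged 5 or more (324 unadjusted), 0 by voom (404 unadjusted) and 1 to 7 without 1 library. Of the 5 genes most like Nefl, 3 were shared when the largest difference in any library measured likeness. Depth limits Nefm, Nefh and, in cKO, Nefl, whose cKO libraries held 13 to 35 reads.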
